A study of Mus musculus with 2 samples.

Results

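The genes described here encode the proteins of the cytosolic ribosome. They were taken by name, as symbols of the form Rpl or Rps followed by a number, together with Rplp0, Rplp1, Rplp2 and Rpsa, and kept where at least 50 unique molecular identifiers (UMIs) were counted over all cells. The table listed 27514 genes, of which 83 had such a name and 81 were kept, 49 of the large and 32 of the small subunit. The 2 left out were Rpl10l, with 0 UMIs, and Rpl3l, with 9 UMIs. Rpl39l, with 115 UMIs, lay just inside the minimum. Fau, whose product carries a ribosomal protein fused to a ubiquitin-like part, Rack1, Rpl36al and Rps27rt lie outside these names.

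The cells were endothelial cells from the dorsal aorta of mouse embryos at embryonic day 10.5, sorted as Ter119-negative, CD41-low or negative, and positive for CD31, CD144 and ESAM. Embryos came from matings of Sp3+/- males with Sp3+/- females, the strain is given as C57Bl6/J x B6129SF1/J, and the mutant allele was Sp3tm1Sus. Cells of wild-type (WT) and of SP3-null (SP3KO) embryos were pooled by genotype, and each pool gave 1 library of 3' UMI counts, so genotype, pool and library cannot be told apart, no test was possible and intervals cover counting error only. The deposited table assigns each cell to a class. Along the path to blood these are arterial endothelium (AE, with a Wnt-high and a Wnt-low part), conflux AE, pre-HE and HE, where HE stands for hemogenic endothelium, and the cells of intra-aortic clusters (IAC); beside it stand venous endothelium (VE, also Wnt-high and Wnt-low) and other endothelium. The number and sex of the pooled embryos are not stated in these sources. Classes were assigned from the expression of these same cells, so comparisons between them are descriptions. The deposited table holds more arterial cells than the study lists, so its Wnt-high and Wnt-low AE are not the same set of cells as the study's AE, and Wnt-low AE is the reference of most comparisons between classes here.

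A cytosolic ribosome is built from a large and a small subunit, each an RNA core covered by proteins. Ribosomal protein transcripts are among the most abundant of a dividing cell, and many of them open with a run of pyrimidines, the 5' terminal oligopyrimidine tract, through which the mTOR pathway sets their translation. Assembly takes place in the nucleolus, and free Rpl5 and Rpl11 that fail to enter a particle are known to bind MDM2 and so to raise p53. Inherited shortage of several of these proteins causes Diamond-Blackfan anaemia, a failure of red blood cell formation, which makes the family of interest where blood forms.

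In all 79456081 UMIs were counted over 4451 wild-type cells and 71154918 over 3954 SP3-null cells. Median depth was 14664 and 15638.5 UMIs per cell, and 5 cell barcodes occurred in both libraries. Sp3 itself, the targeted gene, was counted at 46.3 CPM (UMIs scaled to a common total, interval 44.2 to 48.4) in the summed wild-type and 35.6 CPM (33.8 to 37.5) in the summed SP3-null endothelial cells, and was lower in the SP3-null library in each of the 9 classes. The sources used here do not say which part of the gene the allele lacks, and a 3' tag outside that part would not check the label. Markers of endothelium (Pecam1, Cdh5, Esam, Kdr and Tek) were present in every class, from 353 CPM in IAC to 3538 CPM in pre-HE. HE also carried neural markers (Sox2, Tubb3, Elavl3 and Map2), at 123 CPM (wild-type) and 202 CPM (SP3-null), against 0 to 12 CPM in the other 8 classes. IAC carried macrophage markers (Cd68, Csf1r, Fcer1g and Tyrobp) at 322 and 366 CPM, against 0 to 8 CPM elsewhere. Doublets were not removed here.

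The start of a few of these genes is shown first, because the pyrimidine run is the sequence feature that the family is known for, and because core genes and their like-genes can be set side by side. RefSeq start windows (GRCm38.p6) were at hand for 61 of the 81 genes. Each sequence runs 5′ to 3′ on the gene's strand from 40 bases before the annotated start through the first 20 transcribed bases, and capitals mark the longest run of at least 5 C or T that opens with C within 5 bases of that start. Rpl38 and Rps28, which had the largest SP3-null over wild-type ratios below, and Rpl4, which had the lowest, are followed by Rps2 and by the pairs Rps27 with Rps27l and Rpl22 with Rpl22l1.
Rpl38, chr11:114668540-114668599, plus strand: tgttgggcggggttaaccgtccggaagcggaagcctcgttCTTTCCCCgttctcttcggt
Rps28, chr17:33824543-33824602, minus strand: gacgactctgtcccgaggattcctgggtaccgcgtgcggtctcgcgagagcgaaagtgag
Rpl4, chr9:64173347-64173406, plus strand: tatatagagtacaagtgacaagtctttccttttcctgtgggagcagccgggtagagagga
Rps2, chr17:24720023-24720082, plus strand: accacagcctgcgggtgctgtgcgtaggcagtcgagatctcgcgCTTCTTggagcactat
Rps27, chr3:90213629-90213688, minus strand: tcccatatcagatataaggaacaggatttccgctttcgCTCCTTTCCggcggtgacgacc
Rps27l, chr9:66946046-66946105, plus strand: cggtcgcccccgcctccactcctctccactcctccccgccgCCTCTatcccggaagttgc
Rpl22, chr4:152325686-152325745, plus strand: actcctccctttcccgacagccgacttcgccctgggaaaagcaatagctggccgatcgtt
Rpl22l1, chr3:28805468-28805527, plus strand: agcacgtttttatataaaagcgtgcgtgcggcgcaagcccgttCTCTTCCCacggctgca

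Rpl38 opened with a run of 8 pyrimidines exactly at the annotated start, and Rps27 with 9 that began 2 bases before it. Rps28 and Rpl4 had no such run at the annotated start, although Rpl4 held CTTTCC on the strand shown within the 40 bases before it. Rps27l and Rpl22 each had a second annotated start that is not shown. Over the family 29 of 61 genes (47.5%) had a run by this definition, against 21.2% of 27025 genes with a window and 23.8% of the 9872 of them with at least 50 UMIs. The hexamer CTTTCC, which partly overlaps such runs, was searched on both strands over the 250 bases before and 50 bases after the start. So were the motifs that follow, and a gene counted where any of its windows held a match. CTTTCC occurred in 32 of 61 genes (52.5%), against 29.3% of all genes with a window and 30.7% of those with at least 50 UMIs. CCGGAAG, the core of sites for ETS factors, occurred in 26 (42.6%) against 9.93% and 20.3%, and ATGGCGG, the core of YY1 sites, in 11 (18.0%) against 4.69% and 9.48%. The GC box GGGCGG, the kind of site that SP factors are known to bind, occurred in 38 (62.3%), against 38.2% of all genes with a window and 69.3% of those with at least 50 UMIs. These matches are descriptions of letters in a window, and annotated starts can lie some bases away from the start used in these cells. Members with and without a run had close genotype ratios, with median log2 ratios of 0.026 (n = 29) and 0.018 (n = 31) in the comparison of libraries below.

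Ribosomal protein transcripts made up 38090002 of 150610999 UMIs, or 25.3% of everything counted. The 10 most abundant genes held 21.8% of them, so the total was spread over the family rather than carried by a few genes. Each transcript is counted at its 3' end, so levels are not divided by length. Among the genes with the most UMIs were Rpl13 with 916642, Rps2 with 900814, Rps20 with 856737 and Rps27a, which is made as a fusion to ubiquitin, with 845858. At the other end stood Rpl39l with 115 UMIs, Rpl7l1 with 19357, Rpl13a with 43906, Rpl27 with 69611 and Rps27l with 113104. The levels of core genes such as Rpl13a and Rpl27 are uncertain, since near-identical copies elsewhere in the genome can share their reads. The table listed 8 such copies under pseudogene names, with 24871 UMIs together, among them 5896 for a copy of Rpl27 and 318 for a copy of Rpl13a.

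Between classes the ribosomal protein share of UMIs was lowest in pre-HE and conflux AE and highest in IAC in both libraries. In the wild-type library it was 19.9% in pre-HE, 20.3% in conflux AE, 22.2% in Wnt-high AE, 23.0% in Wnt-low AE, 24.2% in Wnt-high VE, 25.5% in HE, 26.0% in other endothelium, 26.2% in Wnt-low VE and 28.9% in IAC. In the SP3-null library it was 19.6% in pre-HE, 20.4% in conflux AE, 22.8% in Wnt-high AE, 23.6% in Wnt-low AE, 25.2% in Wnt-high VE, 26.1% in HE, 26.3% in other endothelium, 26.6% in Wnt-low VE and 29.9% in IAC. The order of the 9 classes was thus the same in both libraries. Exact Clopper-Pearson 95% intervals were narrow, such as 19.6% to 19.7% for SP3-null pre-HE and 28.8% to 28.9% for wild-type IAC, at between 891135 and 31918875 UMIs per class, and they leave out the spread between embryos. In these sums fewer cells with many such transcripts and fewer transcripts per cell cannot be told apart.

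**Figure D1:**
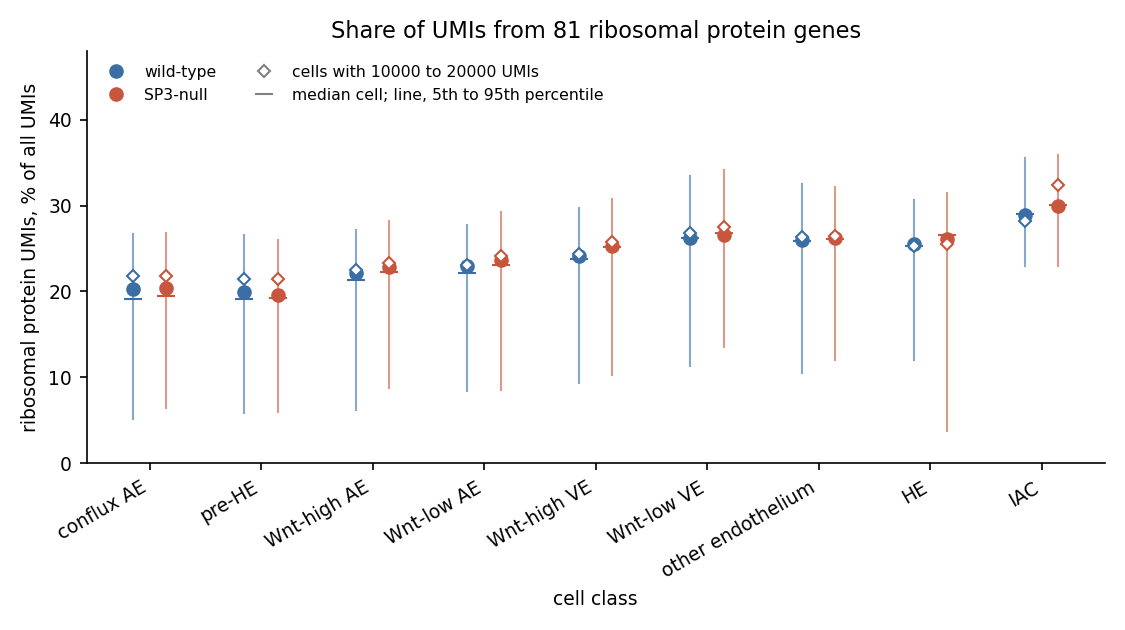
The vertical axis is the percentage of all UMIs that came from the 81 ribosomal protein genes, and the horizontal axis lists the 9 cell classes, with the wild-type library in blue and the SP3-null library in red. Filled circles are class sums, from 19.6% in SP3-null pre-HE to 29.9% in SP3-null IAC, dashes and lines are the median and the 5th to 95th percentile over cells, and open diamonds are sums over cells with 10000 to 20000 UMIs.

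Single cells of 1 class varied more than the classes did. In wild-type Wnt-low AE the median cell had 22.2% ribosomal protein UMIs, with 8.39% at the 5th and 27.8% at the 95th percentile, and in wild-type pre-HE 19.2%, with 5.89% and 26.6%. IAC had the tightest spread, from 23.0% to 35.5% for wild-type and from 23.0% to 35.9% for SP3-null cells. Shallow cells had a low ribosomal protein and a high mitochondrial share. Wild-type Wnt-low AE cells under 5000 UMIs (78 of 472) had 13.4% ribosomal protein and 21.2% mitochondrial UMIs, against 6.31% mitochondrial UMIs in the whole class. Across the cells of a class the share was mostly higher in deeper cells, with Spearman correlations from 0.14 in SP3-null Wnt-low VE to 0.74 in wild-type Wnt-high AE, except in IAC, where they were -0.09 and -0.18. These correlations are over 40 to 1624 cells of 1 library each, and the share and the depth are both computed from the same UMIs.

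Median depth itself differed between classes, from 8850 UMIs in SP3-null conflux AE to 31009 in wild-type IAC, so shares were also read within cells of 10000 to 20000 UMIs. There the pre-HE shares were 21.4% and 21.5% in the wild-type and SP3-null library, the Wnt-low AE shares 23.1% and 24.1%, the HE shares 25.3% and 25.6%, and the IAC shares 28.2% and 32.3%, the last over 17 and 6 cells and the HE values over 23 and 11. With every cell thinned to 5000 UMIs and shallower cells left out (2 to 81 cells per library and class along the path), pre-HE was at 20.1% and 19.98%, Wnt-low AE at 22.2% and 23.0%, HE at 25.2% and 25.8%, and IAC at 29.0% and 30.2%. The order pre-HE, Wnt-low AE, HE, IAC was kept in each library under both settings.

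Gene by gene, most of the family was lower in pre-HE than in Wnt-low AE by any amount, 75 of 80 members in the wild-type and 79 in the SP3-null library. The share of all genes lower by any amount was not counted. Of the 80 members with at least 200 UMIs over all cells, 28 were lower in pre-HE than in Wnt-low AE by a log2 ratio of 0.25 or more in both libraries and 1 was higher, where 17.2% of all genes tested were lower and 28.8% higher by the same measure. The summed log2 ratio was -0.21 in the wild-type and -0.27 in the SP3-null library, and the median over all genes was 0.05 and 0.08. Within cells of 10000 to 20000 UMIs the sums were -0.11 and -0.16, and 8 members were lower by that amount, where 15.9% of all genes were. With cells thinned to 5000 UMIs 13 were lower, against 16.7% of all genes, so in both settings the count of members stood near or under the share of all genes. With edgeR TMM factors in place of UMI totals the sums were -0.37 and -0.50, and 66 were lower, against 28.2% of all genes. Rps2, a small subunit protein that lines the messenger RNA entry channel, stood lowest in the wild-type library with 5413 CPM in Wnt-low AE and 3305 CPM in pre-HE, a log2 ratio of -0.71, and had 5625 and 2932 CPM and a ratio of -0.94 in the SP3-null library. Rpsa, the laminin receptor homologue of the small subunit, had ratios of -0.52 and -0.55. The member that went the other way was Rps27, a zinc finger protein of the small subunit, with 1497 CPM in Wnt-low AE and 1834 CPM in pre-HE in the wild-type library and 1613 and 2043 CPM in the SP3-null library, log2 ratios of 0.29 and 0.34.

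HE stood above pre-HE for nearly every member. By a log2 ratio of 0.25 or more in both libraries 66 of 80 members were higher in HE than in pre-HE and 0 were lower, where 21.8% of all genes were higher and 24.9% lower. The summed log2 ratio was 0.35 in the wild-type and 0.41 in the SP3-null library. It was 0.24 and 0.25 within cells of 10000 to 20000 UMIs, where 29 members passed against 16.4% of all genes, and 0.36 and 0.43 without the 3 wild-type and 4 SP3-null HE cells that held at least 3 UMIs of the neural markers, where 67 passed against 20.1%. Rpl12, a large subunit protein at the base of the stalk, had log2 ratios of 0.56 and 0.75, and Rps27 was again the exception with -0.15 and -0.09.

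Against Wnt-low AE, the position of HE depended on how libraries were scaled. By UMI totals the summed log2 ratio of HE over Wnt-low AE was 0.15 in the wild-type and 0.14 in the SP3-null library. With TMM factors over the class sums, which move the median of all genes from 0.06 to -0.08 and from 0.10 to -0.12, it was 0.00 and -0.08, and with DESeq2 size factors 0.05 and -0.01. By UMI totals 5 of 80 members were higher by 0.25 or more in both libraries and 0 were lower, where 28% of all genes were higher and 17.7% lower.

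The family stood higher in IAC than in Wnt-low AE under every setting used, though the size varied. By UMI totals the summed log2 ratio was 0.33 in the wild-type and 0.34 in the SP3-null library, and the median of all genes 0.04 in each. By 0.25 or more in both libraries 60 of 80 members were higher in IAC and 0 were lower, where 30.7% of all genes were higher and 30.1% lower. The sums were 0.26 and 0.28 with TMM factors, 0.29 and 0.42 within cells of 10000 to 20000 UMIs, and 0.33 and 0.36 without the 14 wild-type and 15 SP3-null IAC cells that held at least 20 UMIs of the macrophage markers, and the members higher by 0.25 or more were 41, 41 and 62, where 27.6%, 29% and 30.2% of all genes were.

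The 6 members with the largest mean ratio of IAC over Wnt-low AE were Rps12, Rpl4, Rpl13a, Rpl14, Rpl36 and Rps25. Rps12, a small subunit protein, had 3858 CPM in Wnt-low AE and 5902 CPM in IAC in the wild-type library and 3897 and 6223 CPM in the SP3-null library, log2 ratios of 0.61 and 0.68. Rpl4, a large subunit protein with a long loop reaching toward the peptide exit tunnel, had ratios of 0.58 and 0.69, and Rpl13a 0.66 and 0.56. Rpl14 had 0.57 and 0.61, Rpl36 0.57 and 0.53, and Rps25, a protein of the small subunit head, 0.51 and 0.55. The 6 with the smallest mean ratio and the same direction in both libraries were Rps2 with 0.05 and 0.04, Rps27 with 0.07 and 0.10, Rps29 with 0.13 and 0.12, Rpl27 with 0.05 and 0.20, Rpl38 with 0.19 and 0.11, and Rps21 with 0.12 and 0.20. Among these 6 the sign turned in at least 1 library for Rps2 and Rpl27 with TMM factors, at most 10% mitochondrial UMIs per cell or in the depth windows, for Rps21 in the depth windows, and for Rpl38 with Wnt-high AE as the reference. Rpl38 was higher in Wnt-high than in Wnt-low AE, with 1872 and 1491 CPM in the wild-type library and 2190 and 1712 CPM in the SP3-null library. Rpl10 had opposite signs in the 2 libraries, -0.07 and 0.06.

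**Figure D2:**
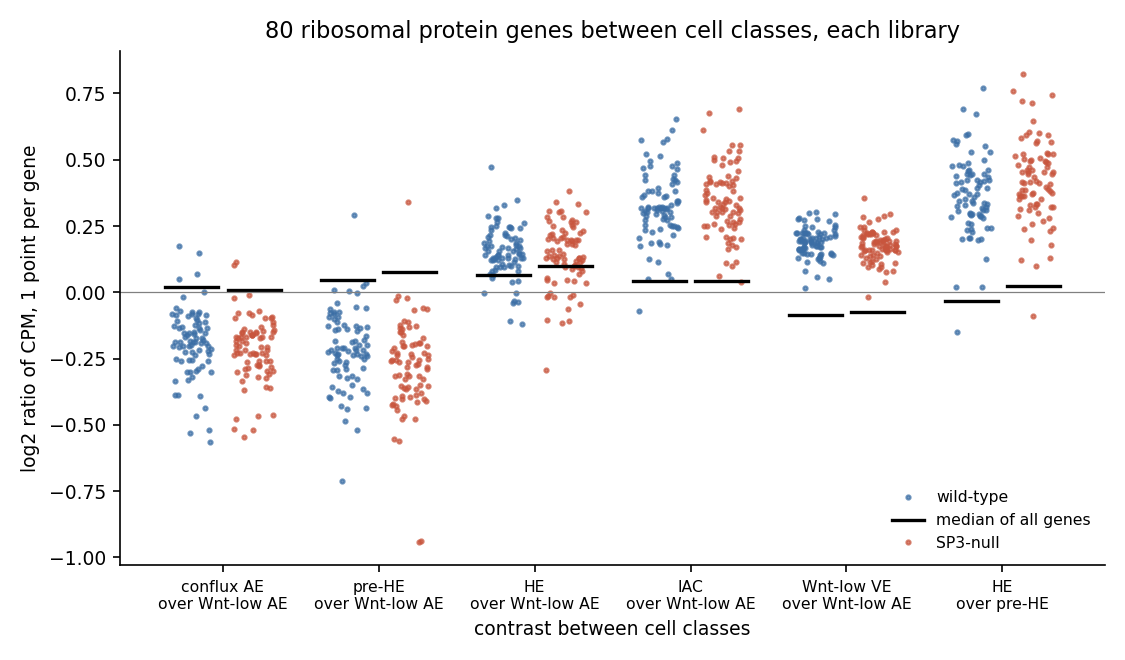
Each point is 1 of 80 ribosomal protein genes, the vertical axis its log2 ratio of CPM between the cell classes named below, and blue and red the wild-type and SP3-null library. Black bars are the median of all genes; the points lie mostly below them for pre-HE over Wnt-low AE and mostly above them for IAC over Wnt-low AE and for HE over pre-HE.

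By share, venous endothelium stood above arterial endothelium of the same Wnt state in both libraries. The summed log2 ratio of Wnt-low VE over Wnt-low AE was 0.19 in the wild-type and 0.17 in the SP3-null library, and the median of all genes -0.09 and -0.07. By 0.25 or more in both libraries 6 of 80 members were higher in Wnt-low VE and 0 were lower, where 7.55% of all genes were higher and 20.1% lower; with TMM factors 44 members were higher, against 11.8% of all genes. Single members had ratios from 0.02 to 0.30 (wild-type) and from -0.02 to 0.36 (SP3-null).

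The members followed each other closely across the 18 class sums of both libraries. The median Spearman correlation of a member with the summed level was 0.95, and 63 of 81 lay above 0.9. Only 4 were under 0.5, namely Rps27 with -0.22, Rpl39l with -0.01, Rps21 with 0.42 and Rpl38 with 0.43. Each member is itself part of the sum, the 18 points share 2 libraries, and the classes were assigned from the expression of these cells, so these values describe the pattern only. Among 6652 other genes with at least 2000 UMIs, 177 had a correlation above 0.9. The 5 highest were Ruvbl2, an ATPase of chromatin remodelling and box C/D particle assembly, Naca, a part of the nascent chain complex that sits on the ribosome, Hat1, a histone acetyltransferase, Snrpd2, a core protein of the spliceosome, and Pcna, the DNA polymerase clamp, with correlations from 0.96 to 0.97. Naca had 1431 and 1362 CPM in wild-type and SP3-null pre-HE and 2056 and 2088 CPM in IAC. Another 195 genes had a correlation below -0.9, and the 5 lowest were Pcsk7, a proprotein convertase, Bmpr2, a receptor for bone morphogenetic proteins, and Pja2, a ubiquitin ligase, each at -0.98, with Sel1l, a part of the degradation machinery of the endoplasmic reticulum, and Mmp14, a membrane-bound matrix metalloprotease, at -0.97. Mmp14 had 198 and 199 CPM in pre-HE and 17.8 and 15.2 CPM in IAC.

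The level of the family in the 2 libraries was compared in the summed arterial, venous, conflux AE and pre-HE cells. The classes entered the 2 sums in unlike amounts. Wnt-high VE held 8672598 of 42091263 UMIs in the wild-type and 11137840 of 39445990 in the SP3-null library, and Wnt-low VE 15029997 and 11783821. The summed share was 24.0% in the wild-type and 24.6% in the SP3-null library, a log2 ratio of 0.035 (counting interval 0.033 to 0.036). Of 81 members 66 had a ratio above 0, and of the 80 with at least 200 UMIs 65 did, where 42.9% of 10146 genes did. The median of the 80 was 0.022 and the median gene had -0.021. The members lay close together, with 95% of them between -0.06 and 0.17, while 95% of all genes lay between -0.52 and 0.33. By 0.1 or more 8 of 80 members were higher in the SP3-null library, where 16.7% of all genes were, and by 0.1 or more 0 were lower, where 27.2% of all genes were. All genes here start at 200 UMIs in these cells, while each of the 80 members had at least 19357 over all cells, so counting error is larger in the range of all genes and in these 2 percentages, and its part in them was not tested.

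The 8 were Rpl38, Rps28, Rps29, Rpl27, Rpl37, Rpl37a, Rps27 and Rps26. Rpl38, a short protein of the large subunit whose loss is known to disturb the body plan through translation of Hox transcripts, had 1628 CPM in the wild-type library and 1904 CPM in the SP3-null one, a log2 ratio of 0.23 (0.21 to 0.24), and lay above 0 in 9 of 9 classes. Rps28, a small protein near the messenger exit, had 1399 and 1595 CPM and a ratio of 0.19 (0.17 to 0.21), with 0.13 to 0.26 over the classes. Rps29, a zinc-binding protein of the small subunit head, had 2764 and 3103 CPM, a ratio of 0.17 (0.15 to 0.18). Rpl27 had 426 and 474 CPM and a ratio of 0.16 (0.13 to 0.19), Rpl37 2298 and 2530 CPM and a ratio of 0.14, and Rpl37a 2698 and 2920 CPM and a ratio of 0.11. Rps27 had 1518 and 1637 CPM and a ratio of 0.11, and Rps26 2855 and 3069 CPM and a ratio of 0.10. All 8 except Rpl37a lay above 0 in 9 of 9 classes, and Rpl37a in 8. These 8 and the 6 lowest members below were picked by the sum over 6 of the 9 classes. Their counts by class partly follow from that choice.

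The 6 lowest members were Rpl4, Rpl17, Rpl12, Rpl10, Rpl5 and Rps7. Rpl4 had 1096 CPM in the wild-type library and 1029 CPM in the SP3-null one, a log2 ratio of -0.091 (-0.11 to -0.071), and was lower in the SP3-null library in 9 of 9 classes, by 0.22 in conflux AE and 0.03 in IAC on the log2 scale. Rpl17, a protein near the exit of the peptide tunnel, had 2396 and 2269 CPM, a ratio of -0.079, Rpl12 3288 and 3165 CPM, a ratio of -0.055, and both were lower in 9 of 9 classes. Rpl10, which joins the large subunit late in the cytoplasm, had 2500 and 2410 CPM and a ratio of -0.053, Rpl5 one of -0.043, and Rps7 one of -0.022. Under equal weights for cells, thinning to 5000 UMIs or the window of 8000 to 20000 UMIs the ratio of Rps7 was above 0. The other 5 of these and Rpl38, Rps28, Rps29, Rpl27, Rpl37 and Rpl37a kept their sign under the 15 other settings, which were not run for Rps27 and Rps26.

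**Figure D3:**
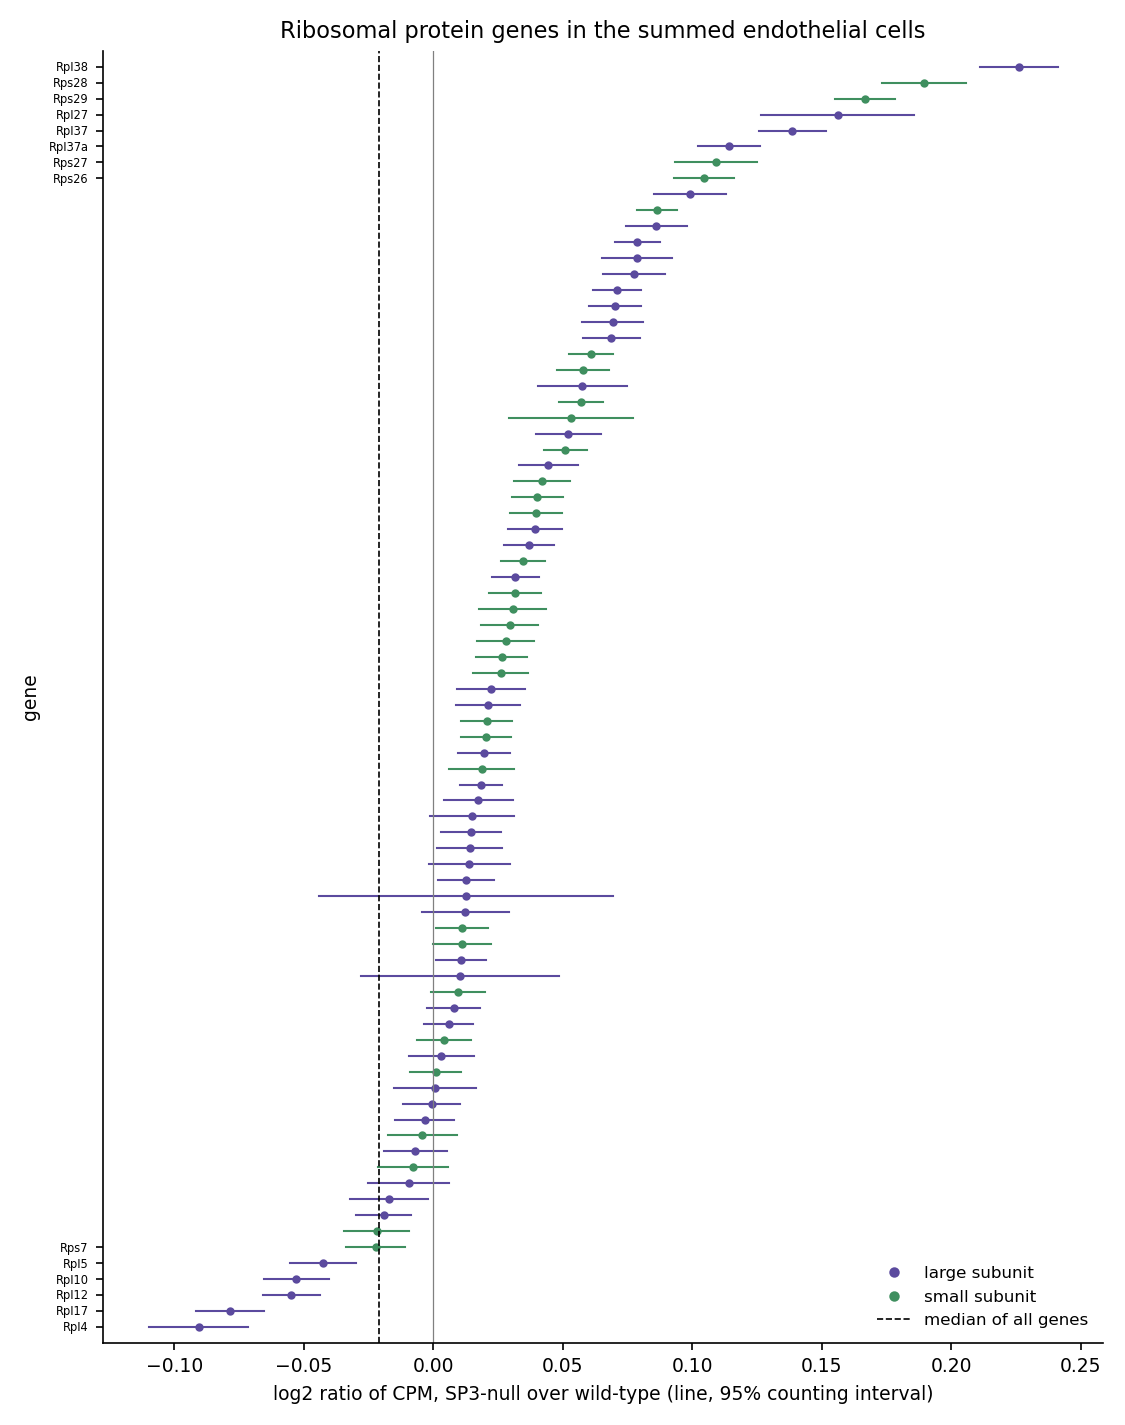
The horizontal axis is the log2 ratio of CPM, SP3-null over wild-type, across endothelial sums, and each row is 1 of the 80 ribosomal protein genes with at least 200 UMIs, purple for the large and green for the small subunit, with the 95% counting interval as a line and the genes at both ends labelled. The genes run from Rpl4 at -0.091 to Rpl38 at 0.23, and the dashed line marks the median of all genes at -0.021.

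Shorter genes had the higher genotype ratios. Among the 78 of 80 members with a coding length in the gene annotation, the Spearman correlation of ratio and length was -0.47, across genes that are not independent replicates. Each length is the median over the annotated transcripts of a gene, such as 286.5 bases for Rpl27a and 262.5 for Rpl36a. It can differ from the length of the transcript that encodes the full protein, so some members may belong in another bin. By these lengths the 11 members with 300 coding bases or fewer had a median log2 ratio of 0.11 and were all above 0, from 0.01 to 0.23. The 31 with more than 300 and up to 450 bases had a median of 0.026, the 17 with up to 600 bases 0.017, and the 19 longer ones 0.014, with 29, 11 and 12 members above 0. Other genes of the same 2 libraries stood in the same order, with medians of 0.014 over 295 genes, 0.0042 over 689, -0.0033 over 867 and -0.029 over 7120 genes in these bins, and their correlation with length was -0.095. Rpl38, Rps28 and Rps29 have 213, 210 and 171 coding bases and Rpl4 has 1260. Rpl39, the shortest of these 78 with 156, had a ratio of 0.044. Rpl41 and Rps3a1 had no length there and are left out of the comparison, with ratios of 0.071 and 0.040. The part of transcript length in the ratios was not tested.

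**Figure D4:**
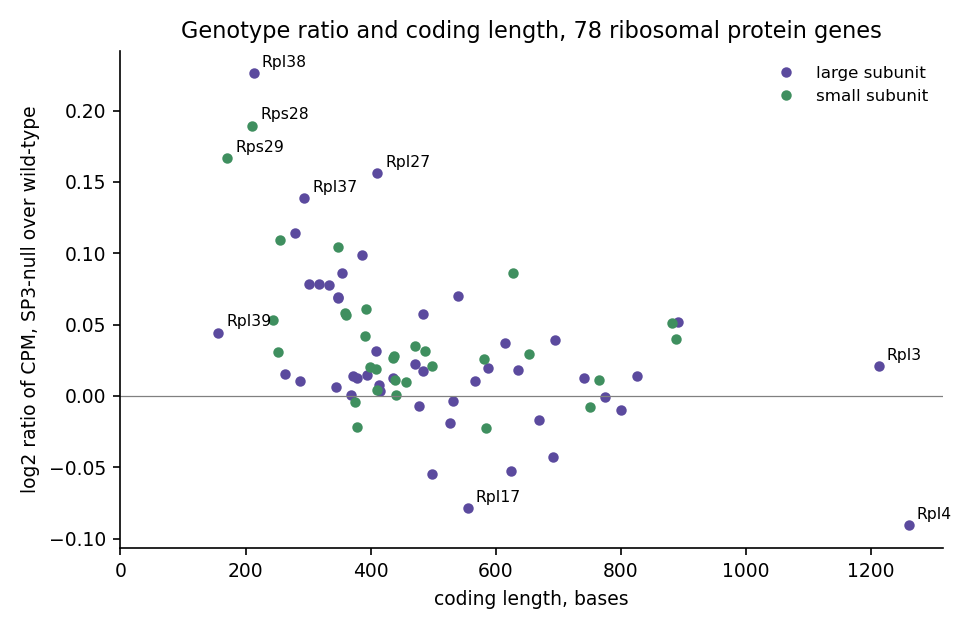
The horizontal axis is the coding length in bases, as the median over the annotated transcripts of a gene. The vertical axis is the log2 ratio of CPM, SP3-null over wild-type, for 78 ribosomal protein genes, purple for the large and green for the small subunit. The genes with 300 bases or fewer lie between 0.01 and 0.23, and Rpl4, the longest with 1260 bases, lies at -0.091.

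By class the summed log2 ratio of SP3-null over wild-type was 0.037 in Wnt-low AE, 0.041 in Wnt-high AE, 0.022 in Wnt-low VE, 0.063 in Wnt-high VE, 0.012 in other endothelium, 0.034 in HE and 0.052 in IAC, and in conflux AE its interval of -0.0033 to 0.010 spanned 0. In pre-HE it was -0.023 (-0.031 to -0.015). In pre-HE 27 of 80 members had a ratio above 0, where 49.7% of all genes did, and in Wnt-high VE 72 of 80, where 42.9% of all genes did. In pre-HE the mitochondrial share was 7.51% in the wild-type and 8.56% in the SP3-null library, at median depths of 9257.5 and 9163 UMIs, and in Wnt-high VE it was 6.17% and 5.24%, at depths of 14475.5 and 19230 UMIs. The part of either in the ratios was not tested. Within cells of 10000 to 20000 UMIs the ratio was 0.0071 in pre-HE and 0.085 in Wnt-high VE, and among cells with at most 10% mitochondrial UMIs 0.017 and 0.032, so that the sign of the pre-HE ratio was not kept. Nor was that of HE, with -0.020 within cells of 8000 to 20000 UMIs. The small subunit sum had a ratio of 0.039 and the large subunit sum 0.030 in the summed endothelial cells, so that 1.16 large subunit UMIs were counted per small subunit UMI in the wild-type and 1.15 in the SP3-null library.

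The stalk of the large subunit, which recruits the translational GTPases, is formed by Rplp0 with copies of Rplp1 and Rplp2. In the summed endothelial cells Rplp0 had 3580 CPM (wild-type) and 3678 CPM (SP3-null), Rplp1 4279 and 4296 CPM, and Rplp2 2839 and 2979 CPM, with log2 ratios of 0.039, 0.0059 and 0.069. Rplp1 stood above Rplp0 in every class and library, and the counts were not divided by length. In IAC Rplp1 reached 5782 CPM (wild-type) and 5861 CPM (SP3-null), against 3230 and 3083 CPM in pre-HE. Its log2 ratio of IAC over Wnt-low AE was 0.52 and 0.53, while that of Rplp0 was 0.30 and 0.42 and that of Rplp2 0.31 and 0.35.

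Rpl5 and Rpl11, which carry the 5S ribosomal RNA into the large subunit, both lay below 0 between the libraries. Rpl5 had 2437 CPM in the wild-type library and 2366 CPM in the SP3-null one (log2 ratio -0.043, interval -0.056 to -0.030) and was lower in 9 of 9 classes, and Rpl11 had 3441 and 3396 CPM (-0.019, interval -0.030 to -0.0085) and was lower in 7. Their ratios of IAC over Wnt-low AE, 0.24 and 0.18 for Rpl5 and 0.23 and 0.24 for Rpl11, lay under those of the sum. From Wnt-low AE to pre-HE and on to HE, Rpl5 moved further than the sum, with -0.36 and -0.44 for the first step and 0.49 and 0.57 for the second. Of 19 p53 target genes, 18 were measured with at least 50 UMIs in the summed endothelial cells, 5 above and 13 below 0 between the libraries. Of all genes with at least 200 UMIs there, 42.9% lay above 0. The p53 targets had a median log2 ratio of -0.14 and a summed one of -0.00034. Cdkn1a, the cell cycle inhibitor, was the highest with 43.6 and 65.3 CPM (0.58), and Tnfrsf10b, a death receptor, the lowest with 7.84 and 5.98 CPM (-0.39). By class Cdkn1a had 11.8 and 14.0 CPM in Wnt-low AE and 9.49 and 10.3 CPM in IAC. In pre-HE it was lower in the SP3-null library, with 13.7 and 6.73 CPM, as in HE with 16.0 and 5.58 CPM. The part of the unlike class amounts in the summed ratio of Cdkn1a was not tested. The most abundant were Bax, a promoter of cell death, with a ratio of 0.086, and Plk2, a polo-like kinase, with -0.098. Along the path 4 of the 18 were higher and 10 lower in IAC than in Wnt-low AE in both libraries, by any amount. All genes were not counted by any amount, and by a log2 ratio of 0.25 or more 30.7% of them were higher and 30.1% lower. The summed list had ratios of -0.89 and -0.85, to a large part through Plk2, which had 330 and 299 CPM in Wnt-low AE, within list sums of 837 and 820 CPM, and 33.9 and 32.1 CPM in IAC.

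Some ribosomal proteins have a like-gene, a relative that can take their place in the particle. Rps27l, which is also a p53 target, was counted beside Rps27 in every class, and its share of the UMIs of the pair differed between classes by more than its counting error. In the wild-type library it was 20.3% (19.0% to 21.7%) in pre-HE, 20.8% in conflux AE, 29.2% in Wnt-high AE, 29.6% in Wnt-low AE, 31.0% in HE, 32.8% in Wnt-low VE, 34.3% in IAC, 34.4% in other endothelium and 34.8% in Wnt-high VE. In the SP3-null library it was 18.7% (17.1% to 20.4%) in pre-HE, 21.3% in conflux AE, 26.5% in Wnt-high AE, 28.9% in Wnt-low AE, 26.0% in HE, 32.5% in Wnt-low VE, 35.0% in IAC, 34.5% in other endothelium and 33.2% in Wnt-high VE. Pre-HE and conflux AE were the lowest classes in each library. Rps27l stood at 467 and 470 CPM in pre-HE and at 819 and 929 CPM in IAC, while Rps27 had 1834 and 2043 CPM in pre-HE and 1570 and 1728 CPM in IAC. In HE the wild-type share of 31.0% (29.3% to 32.8%, over 59 cells) stood above the SP3-null share of 26.0% (24.2% to 27.8%, over 40 cells). A further copy of Rps27, Rps27rt, had 8403 UMIs and may share reads with Rps27.

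Rpl22l1, the relative of the RNA-binding protein Rpl22, was close to its counterpart in level. In the wild-type library it held from 43.0% of the pair in Wnt-high AE to 50.6% (49.9% to 51.3%) in IAC, and in the SP3-null library from 41.5% in Wnt-low VE to 46.9% (46.1% to 47.7%) in IAC. By value the SP3-null share was the lower of the pair of libraries in each of the 9 classes, and the intervals of the 2 libraries lay apart in IAC, HE, both VE classes and other endothelium. Rpl22 itself had 1974 CPM in the wild-type library and 2114 CPM in the SP3-null one, a log2 ratio of 0.099 (0.085 to 0.11), while Rpl22l1 had 1553 CPM in both and an interval of -0.015 to 0.016. Rpl7l1, a biogenesis factor resembling Rpl7, held from 2.94% (2.21% to 3.81%) of its pair in SP3-null pre-HE to 5.28% (4.99% to 5.57%) in wild-type Wnt-high VE. Its own UMIs were few, 133 and 54 in pre-HE and 166 and 96 in HE.

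**Figure D5:**
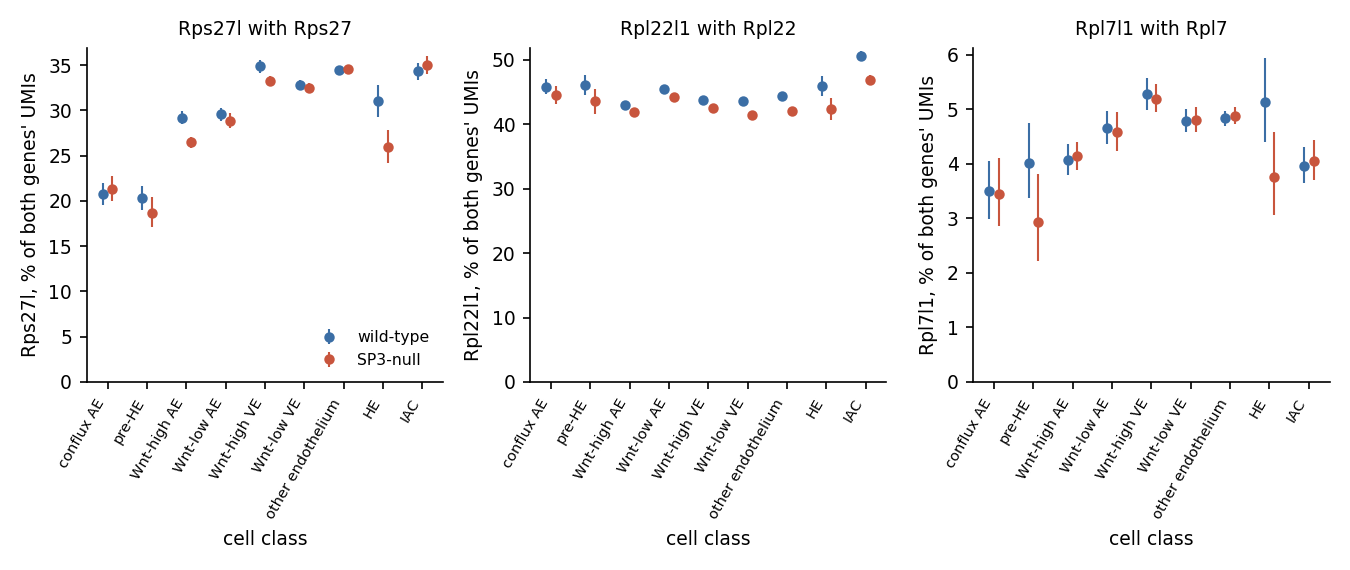
The vertical axes are the UMIs of Rps27l, Rpl22l1 and Rpl7l1 as a percentage of the UMIs of each with its counterpart, the horizontal axes the 9 cell classes, and bars the exact 95% binomial interval, with the wild-type library in blue and the SP3-null library in red. Rps27l runs from 18.7% in SP3-null pre-HE to 35.0% in SP3-null IAC, and Rpl22l1 is highest in wild-type IAC at 50.6%.

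Tissue-restricted relatives were at or near 0. Rpl39l, known from testis, had at most 25 UMIs in a class and library, and 115 over all cells against 460474 for Rpl39. Rpl3l, known from striated muscle, had 9 UMIs over all cells against 406802 for Rpl3. Rpl10l, known from testis, had 0 UMIs against 376145 for Rpl10.

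On the X chromosome lie Rpl10, Rpl36a, Rpl39 and Rps4x. Their log2 ratios of SP3-null over wild-type were -0.053, 0.015, 0.044 and 0.011, within the range of the other members. The 81 genes lie on 19 chromosomes, 14 of them on chromosome 7, and 0 within 10 Mb of Sp3. Among the 18 genes of the family listed here for Diamond-Blackfan anaemia, 15 had a ratio above 0 and 3 below, near the share of the whole family, where 66 of 81 lay above 0. Of all genes 42.9% lay above 0. The median of the 18 was 0.032, beside a median of 0.022 over the whole family. They include Rps24, with 5307 and 5536 CPM, Rpl15, which had 4180 and 4289 CPM, and Rps19, the gene most often mutated in that disease, with 3218 and 3280 CPM and a ratio of 0.028.

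Other genes of ribosome production and translation were read from lists. Their counts above and below 0 between the libraries stand beside 42.9% above 0 and a median of -0.021 over all genes. The lists count genes with at least 50 UMIs in the summed endothelial cells, while all genes here start at 200. Fau, outside the names used here, had 3225 CPM in the wild-type library and 3461 CPM in the SP3-null one (log2 ratio 0.10, interval 0.091 to 0.11). Of 40 ribosome biogenesis factors, 8 lay above and 32 below 0, with a median of -0.061 and a summed ratio of -0.046 (-0.053 to -0.039). Npm1, a nucleolar chaperone, had 3456 and 3414 CPM (-0.017), Ncl, nucleolin, 1186 and 1105 CPM (-0.10), Gnl3, a nucleolar GTPase, 102 and 85.6 CPM (-0.25), and Nop10, a part of the H/ACA particles, 300.9 and 331 CPM (0.14). Along the path the biogenesis list was steeper than the ribosomal proteins. Its summed log2 ratio of IAC over Wnt-low AE was 1.00 and 1.04 in the wild-type and SP3-null library, and of HE over pre-HE 1.08 and 1.19, with 39 of 40 members higher in both libraries in each. By a log2 ratio of 0.25 or more, 30.7% and 21.8% of all genes were higher in both libraries in these contrasts. The share of all genes higher by any amount was not counted.

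RNA polymerase I and its factors (15 genes) had 5 above and 10 below 0 between the libraries, with a median of -0.040. Polr1d, a subunit shared with polymerase III, had a ratio of -0.040, Taf1d, a part of the promoter selectivity factor, 0.039, Taf1b of the same factor 0.21 and Polr1e, a subunit of polymerase I, -0.32. The summed ratio of IAC over Wnt-low AE was 0.47 and 0.50. Other genes with 5' oligopyrimidine transcripts (17) had 9 above and 8 below 0, a median of 0.0046 and a summed ratio of the opposite sign, -0.020, with Tpt1, a translationally controlled protein, the lowest at 5922 and 5544 CPM (-0.095), Fau the highest, and Eef1a1, the elongation factor that brings aminoacyl-tRNA, at 4376 and 4305 CPM (-0.024). Along the path Tpt1 went another way than the ribosomal proteins, with 7461 and 6489 CPM in pre-HE, above its 5639 and 5384 CPM in Wnt-low AE and its 5601 and 5410 CPM in IAC.

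Of 25 translation initiation factors 11 lay above and 14 below 0, near the share of all genes, with a median of -0.011. Eif1, which guards start codon choice, had a ratio of -0.0079, Eif5a, which helps ribosomes past difficult peptide bonds, -0.012, Eif1a -0.31 and Eif3j1 0.17. Eif1 had log2 ratios of IAC over Wnt-low AE of -0.25 and -0.31, and Eif5a of 0.58 and 0.63. Of 78 mitochondrial ribosomal protein genes 77 were measured, with 32 above and 45 below 0, also near the share of all genes, a median of -0.017 and a summed ratio whose interval of -0.010 to 0.0043 spanned 0. The most abundant, Mrpl34 and Mrps33, had ratios of 0.11 and 0.038, and the highest and lowest, Mrpl54 and Mrpl37, 0.18 and -0.17. The summed mitochondrial list was 0.24 and 0.22 higher in IAC than in Wnt-low AE, and its level across the 18 class sums had a Spearman correlation of 0.93 with the cytosolic sum.

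The mTORC1 list, the pathway that governs translation of oligopyrimidine transcripts, had 7 above and 7 below 0 among 14 measured of 15 genes and a median of -0.0014, with a summed ratio of 0.021. Rheb, the GTPase that activates mTORC1, had a ratio of 0.029, Eif4ebp1, a repressor of cap-dependent translation, 0.096, Ddit4, an inhibitor of mTORC1, 0.31 and Sesn2, another inhibitor, -0.35 at 4.04 and 3.17 CPM. Of the 4 classes Wnt-low AE, pre-HE, HE and IAC, Ddit4 was highest in pre-HE, at 51.4 and 67.3 CPM in pre-HE against 9.74 and 16.3 CPM in Wnt-low AE and 2.13 and 2.87 CPM in IAC. The MYC family and its partners had 6 above and 4 below 0 among 10 measured of 11 genes and a median of 0.024. Mga, a repressor of the family, had a ratio of 0.014, Max, the common partner, 0.21, Mxi1, an antagonist, 0.56 and Mxd3, also an antagonist, -0.36. Along the path the summed MYC list was higher in IAC than in Wnt-low AE, by 0.69 (wild-type) and 0.48 (SP3-null). It was also higher in HE than in pre-HE, by 0.59 and 0.64. By any amount in both libraries 6 genes were higher and 2 lower in IAC, and 5 higher and 3 lower in HE. By 0.25 or more 30.7% and 21.8% of all genes were higher in these contrasts. Over the 18 class sums the Spearman correlation with the ribosomal protein sum was 0.92 for biogenesis factors, 0.88 for polymerase I and 0.92 for initiation factors. It was 0.87 for the other oligopyrimidine transcripts, 0.74 for the mTORC1 list, -0.05 for the MYC list and -0.81 for the p53 targets. All these lists share libraries and totals with the ribosomal protein sum.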

How the data were processed

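A pool of sorted cells per genotype was captured with the Chromium 3' kit. The authors aligned reads with Cell Ranger to mm10 (GRCm38), the version not given in the sources used here, removed barcodes under 1000 UMIs, and deposited a matrix of raw UMI counts that was not normalized. Their cell table gives library, total count, class, and a mitochondrial fraction, which the authors computed. The values of 2 other columns were not used. Matrix sums and the deposited totals differed by 0.145%.

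UMIs were summed per class and library, or over the 6 endothelial classes, and divided by their total. CPM carry exact Poisson, shares Clopper-Pearson and log2 ratios exact conditional intervals at 95%. Only the log2 ratio intervals were tested on simulated data, with counts drawn without spread between cells or embryos. Members and gene lists were chosen with earlier results of these data known. Named genes are the 5 most and fewest UMIs, the 6 highest and lowest ratios of genotype (at least 200 UMIs) and of IAC over Wnt-low AE, stalk, 5S, like-gene and X-linked members, and each list's 2 most abundant and extreme genes, some of which are not reported here. Coding length is the median over transcripts of a gene in GENCODE M1, used for lengths only, as its build is older. Promoters and coordinates are RefSeq GRCm38.p6. Alternatives were edgeR 4.0.16 TMM factors, DESeq2 1.42.0 size factors, other denominators, weights, cells, depths and minimums. Chosen after seeing the data were the window of 10000 to 20000 UMIs and omission of marker-bearing HE cells (neural) and IAC (macrophage). Python 3.11.15, numpy 2.4.6, scipy 1.17.1 and R 4.3.3 were used.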

Additional observations from a re-analysis of the deposited data

Results flagged for a closer look

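The summed ribosomal protein log2 ratio of SP3-null over wild-type was -0.023 in pre-HE, where 53 of 80 members were below 0, while it was above 0 in 7 other classes and spanned 0 in conflux AE. It stood out because pre-HE lay on the other side of 0 than those classes. With 1 library per genotype the difference between pre-HE and the other classes was not tested. The pre-HE ratio was 0.0071 within cells of 10000 to 20000 UMIs, 0.020 within cells of 8000 to 20000 UMIs, 0.017 among cells with at most 10% mitochondrial UMIs, -0.0098 with cells thinned to 5000 UMIs, -0.0100 with cells weighted alike, and -0.0083 with ribosomal protein and mitochondrial UMIs left out of the total.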

How the results depend on the processing

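The summed log2 ratio of SP3-null over wild-type, 0.035 by UMI totals, was 0.054 with TMM factors, 0.055 with DESeq2 size factors, 0.037 with UMIs neither ribosomal nor mitochondrial as the total, 0.065 with cells weighted alike, 0.026 with classes weighted alike, 0.023 with all cells, 0.033 with arterial classes, 0.027 with venous classes, 0.055 with cells of 8000 to 20000 UMIs, 0.044 with cells thinned to 5000 UMIs, 0.023 with cells of at most 10% mitochondrial UMIs and 0.047 with cells of 10000 to 20000 UMIs. It stayed above 0 in each of these. The median over members, 0.022, was 0.042 with TMM factors, 0.043 with DESeq2 size factors, 0.053 with cells weighted alike and 0.041 with cells of 8000 to 20000 UMIs, and the members above 0 numbered 54 to 74 over all settings, of 77 to 82 counted. The wild-type and SP3-null sums of HE over Wnt-low AE were 0.0018 and -0.076 with TMM factors, 0.048 and -0.0085 with DESeq2 size factors, 0.18 and 0.17 with UMIs neither ribosomal nor mitochondrial as the total, 0.23 and 0.17 with cells weighted alike, 0.18 and 0.077 with cells of 8000 to 20000 UMIs, 0.18 and 0.17 with cells thinned to 5000 UMIs, 0.12 and 0.094 with cells of at most 10% mitochondrial UMIs, 0.20 and 0.19 with Wnt-high AE as the reference, 0.13 and 0.086 with cells of 10000 to 20000 UMIs and 0.16 and 0.16 with neural-marker cells left out. The SP3-null value turned below 0 with both scaling factors, where the median of all genes also shifted. The sums of IAC over Wnt-low AE were 0.26 and 0.28 with TMM factors, 0.31 and 0.32 with DESeq2 size factors, 0.41 and 0.45 with UMIs neither ribosomal nor mitochondrial as the total, 0.49 and 0.48 with cells weighted alike, 0.30 and 0.44 with cells of 8000 to 20000 UMIs, 0.39 and 0.39 with cells thinned to 5000 UMIs, 0.27 and 0.29 with cells of at most 10% mitochondrial UMIs, 0.38 and 0.39 with Wnt-high AE as the reference, 0.29 and 0.42 with cells of 10000 to 20000 UMIs and 0.33 and 0.36 with macrophage-marker cells left out. Leaving out like-genes, or asking for 200 UMIs or 1 UMI in each library, moved none of the sums it was run on beyond counting error. Of the named genes 177 of 180 genotype values and 249 of 264 IAC values kept their direction, with Rps7 the exception in the first and Rps2, Rpl27, Rps21 and Rpl38 in the second. No paired analysis was possible because each genotype had 1 library. The cause of these shifts was not tested. HE rests on 59 and 40 cells, and IAC within the window of 10000 to 20000 UMIs on 17 and 6.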
